A study of Mus musculus with 12 samples.

Results

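Immediate early genes, which cells switch on within minutes of a stimulus, were followed at 4 and 8 weeks of age in the β-cell and non-β-cell fractions of sorted NOD mouse islets. The 10 genes were Fos, Fosb, Jun, Junb, Egr1, Nr4a1, Nr4a2, Nr4a3, Atf3 and Ier2. In β-cells, Fos, Junb, Fosb, Egr1, Ier2 and Nr4a1 rose from 4 to 8 weeks by 0.57 to 1.20 on the log2 scale, Atf3 fell by 1.21, and Jun, Nr4a2 and Nr4a3 did not pass the test. In non-β-cells, Fos fell by 0.53 and the other 9 genes did not pass the test. Of all tested genes, 8.59% rose and 9.35% fell in β-cells, and 11.6% rose and 4.8% fell in non-β-cells. At both ages all 10 transcripts were lower in every β-cell sample than in every non-β-cell sample. That held for 26.7% of all tested genes at 4 weeks and 32.4% at 8 weeks. This contrast was among the values that chose the genes, so nothing is read from the count. The genes were taken by symbol from a table of 52962 Ensembl genes, in which each symbol matched 1 gene, and all 10 were among the 15598 genes that passed the filter on low counts.

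Transcript levels were measured by RNA sequencing of total RNA in 12 samples, in which both fractions were taken at both 4 and 8 weeks of age, with 3 replicates in each of the 4 groups. All came from islets of female mice of the NOD strain, which develops autoimmune diabetes, with no further genotype or treatment in any group. In the study's methods, islets kept overnight in culture were dispersed with trypsin at 37 °C, and cells negative for the leukocyte antigen CD45 were sorted on their endogenous fluorescence, so that every group passed through dispersal and sorting before RNA was taken. Each replicate was a pool of animals in the study's account, a point that is absent from the labels, and p-values measure the spread between these samples. Total estimated counts ran from 13755106 to 27040652 per sample. The list of 10 genes was chosen from earlier results of these data: Nr4a3 had stood among the largest differences between β-cells and non-β-cells, and the list had been drawn up beside the difference in age change between the fractions. Those contrasts are therefore given as a description, with no test, and the age changes within each fraction, which carry a test, are not independent of them.

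Immediate early genes are transcribed by factors already present in the cell, without new protein synthesis. Growth factors, calcium entry, cyclic AMP and mechanical or heat stress act through MAP kinases on serum response factor (Srf) and its Elk partners, and through protein kinases on CREB, and the transcripts are short-lived. In islets they follow glucose, depolarisation and incretin signals, and in many tissues they are also switched on while cells are being dissociated. Fos and Jun proteins join as the AP-1 dimer, Atf3 pairs with Jun proteins and often represses, Egr1 is a zinc finger factor, Nr4a1 to Nr4a3 are orphan nuclear receptors, and Ier2 is a small nuclear protein.

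Promoters are shown for 4 members: Fos and Nr4a1, which rose with age in β-cells, Atf3, which fell, and Nr4a3, which had the lowest level. RefSeq windows of 250 bases before to 50 bases after a gene start were matched by symbol for 8 of the 10 genes, all but Egr1 and Ier2, and the bases before the start are printed, with the core of the cyclic AMP response element (TGACG, or CGTCA on the other strand) in capitals. The windows of Nr4a1, Nr4a3 and Atf3 stand at a start inside the GENCODE span of the gene.
Fos (GRCm38.p6, chr12:85473640-85473889, plus strand): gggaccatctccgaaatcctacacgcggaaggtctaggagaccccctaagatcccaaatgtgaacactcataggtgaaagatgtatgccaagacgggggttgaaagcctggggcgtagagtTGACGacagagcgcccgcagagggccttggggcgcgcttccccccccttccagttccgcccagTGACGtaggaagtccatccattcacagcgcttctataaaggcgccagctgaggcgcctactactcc
Nr4a1 (GRCm38.p6, chr15:101266596-101266845, plus strand): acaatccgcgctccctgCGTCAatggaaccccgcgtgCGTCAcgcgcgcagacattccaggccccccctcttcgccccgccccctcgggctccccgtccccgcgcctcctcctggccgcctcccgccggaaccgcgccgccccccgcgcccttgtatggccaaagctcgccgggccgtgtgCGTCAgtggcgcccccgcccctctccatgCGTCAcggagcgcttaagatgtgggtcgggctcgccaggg
Atf3 (GRCm38.p6, chr1:191183334-191183583, minus strand): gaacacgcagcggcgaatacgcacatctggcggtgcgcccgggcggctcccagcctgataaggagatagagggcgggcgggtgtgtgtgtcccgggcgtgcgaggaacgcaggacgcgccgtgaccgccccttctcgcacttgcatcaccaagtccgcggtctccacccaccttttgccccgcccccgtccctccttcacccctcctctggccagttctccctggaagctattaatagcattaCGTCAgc
Nr4a3 (GRCm38.p6, chr4:48045055-48045304, plus strand): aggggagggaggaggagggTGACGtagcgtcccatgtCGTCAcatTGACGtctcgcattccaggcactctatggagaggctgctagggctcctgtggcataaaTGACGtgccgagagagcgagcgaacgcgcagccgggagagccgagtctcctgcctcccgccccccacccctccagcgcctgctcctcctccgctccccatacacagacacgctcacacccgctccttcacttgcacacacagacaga

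The CRE core TGACG was present on either strand in 7 of the 8 windows, all but that of Jun, or 87.5%, and in 20.8% of all 32851 windows of the same length. Nr4a1, Nr4a2 and Nr4a3 held 4 copies each, Fos 2, and Fosb, Junb and Atf3 1 each. The complete palindrome TGACGTCA, which contains the core on both strands, was in 0 of 8 and in 1.79% of all windows. An EGR site (GCGNGGGCG) was in 3 of the 8, those of Fosb, Nr4a1 and Nr4a2, and in 5.55% of all windows. The AP-1 site TGANTCA, the CArG box bound by Srf and the NR4A site AAAGGTCA were in 0 of 8, and in 7.81%, 1.63% and 1.51% of all windows. Sites beyond the windows, near matches to these patterns, and the promoters of Egr1 and Ier2 were not read, so an absence here covers exact matches inside the windows only. Median GC content was 65.0% in the 8 windows and 52.7% in all, and the matches describe letters only.

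The 10 genes were compact. In the GENCODE M21 annotation (GRCm38) their median span was 6259 bases, against 21692 bases for the 15399 tested genes with an annotation, and their longest transcripts had a median of 4 exons against 7. Fos lay at chr12:85473890-85477273 on the plus strand, Fosb at chr7:19302696-19310051 on the minus strand, Jun at chr4:95049034-95052222 on the minus strand and Junb at chr8:84974484-84978718 on the minus strand. Egr1 was at chr18:34859823-34864984 (plus), Atf3 at chr1:191170296-191218039 (minus) and Ier2 at chr8:84661331-84662852 (minus). The NR4A genes were at chr15:101254269-101274795 (Nr4a1, plus), chr2:57106830-57124003 (Nr4a2, minus) and chr4:48045153-48086447 (Nr4a3, plus). The longest transcripts of Jun, Junb and Ier2 had 1 exon each. Overlapping genes were annotated for Jun (the antisense Junos, at most 5.15 CPM), for Junb (Prdx2 on the other strand, at most 223 CPM) and for Atf3 (Gm24748, at 0 in every sample), and whether the counting used the strand of the reads is not stated, so reads of these partners cannot be told apart with certainty.

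Levels are given as CPM, the count of a gene scaled to a common library size by TMM (trimmed mean of M-values). In non-β-cells most of the 10 genes were among the most abundant transcripts of the fraction once the level was divided by transcript length. At 4 weeks Fos ranked 21 of 15399 genes at 1592 CPM per kb, Atf3 ranked 28, and Nr4a2 and Nr4a3 ranked 376 and 2720. At 8 weeks Atf3 ranked 22 at 1198 CPM per kb, and Junb, Fos, Fosb and Jun followed with overlapping replicates. In β-cells the ranks were lower, with Jun highest at 4 weeks (127 ± 9.21 CPM per kb, SD, n = 3, rank 459) and Fos highest at 8 weeks (263 ± 27.9 CPM per kb, rank 167). Neighbours in the 4-week β-cell order from Jun down to Egr1 (Jun, Fos, Junb, Atf3, Ier2, Egr1) overlapped, whereas Egr1 stood apart from Nr4a1 below it. In β-cells at 8 weeks the replicates of Fos, Junb, Jun and Ier2 did not overlap in that order. Nr4a2 and Nr4a3 were lowest in all 4 groups, and Nr4a3 in β-cells, at 0.492 and 0.337 CPM per kb, exceeded only 16.0% and 10.7% of the tested genes.

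**Figure D1:**
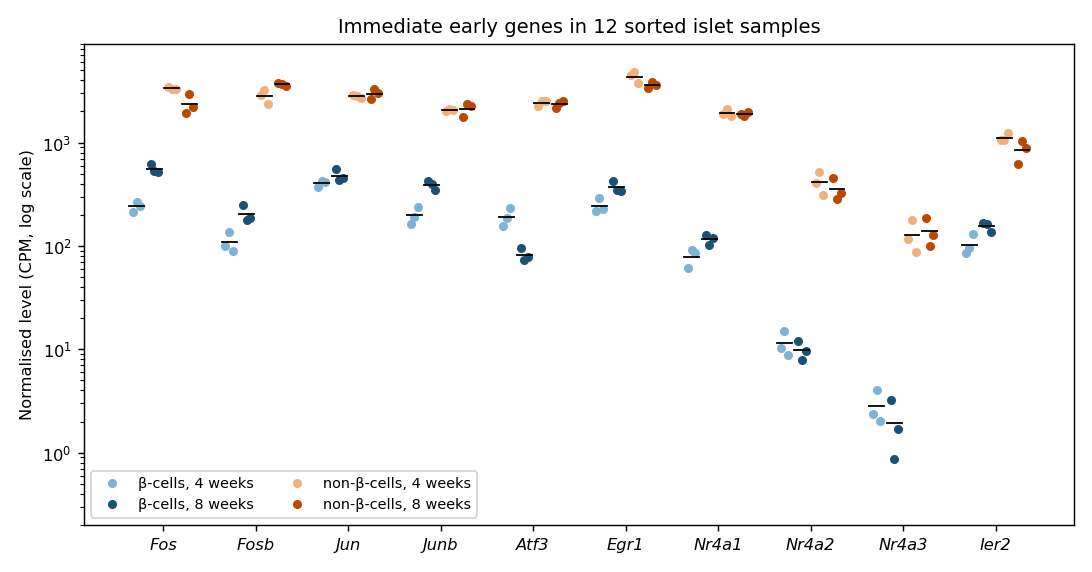
Level of each immediate early gene in CPM (log axis) in the 12 samples; points are replicates, bars are group means, and colour gives the cell fraction and age. All non-β-cell points lie above all β-cell points of the same gene, from Jun (at most 549.7 CPM in β-cells) to Nr4a3 (at most 4.08 CPM in β-cells).

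The contrast of β-cells with non-β-cells at the same age asks how the cell fractions differ, and was among the values that chose the genes. For Nr4a3, the β-cell samples held 2.34, 4.08 and 2.02 CPM at 4 weeks, which is 46, 103 and 44 estimated counts, and the non-β-cell samples held 116, 177 and 87.6 CPM. At 8 weeks Nr4a3 was at 3.24, 0.867 and 1.68 CPM in β-cells (70, 23 and 42 counts) against 187, 101 and 127 CPM in non-β-cells. The groups did not overlap, and the log2 difference was -5.45 (SE 0.58) at 4 weeks and -6.37 (SE 0.69) at 8 weeks. Nr4a2, a nuclear receptor of the same family, read 10.3, 14.98 and 8.90 CPM in the 4-week β-cells and 408, 523 and 309 CPM in the non-β-cells of that age. At 8 weeks its values were 12.0, 7.84 and 9.59 CPM in β-cells and 452, 288 and 327 CPM in non-β-cells. The Nr4a2 difference was thus -5.16 (SE 0.28) and -5.19 (SE 0.28), and the ages overlapped in both fractions.

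Differences of the other 8 genes were -2.80 (Jun) to -4.71 (Fosb) at 4 weeks and -2.07 (Fos) to -4.86 (Atf3) at 8 weeks. All 10 were lower in β-cells with no overlap at both ages; over all tested genes, 26.7% at 4 weeks and 32.4% at 8 weeks were lower in β-cells without overlap, a count from which nothing is read here. The median difference of the 10 genes was -3.98 at 4 weeks and -3.66 at 8 weeks. In bulk samples fewer cells carrying a transcript and less transcript per cell cannot be told apart.

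Because levels in β-cells were a small part of those in non-β-cells, the transcripts of the other hormone cells were read on the same scale. The sort separated most marker genes: the 10 β-cell markers summed to 46840 to 113622 CPM in β-cells and 3007 to 5976 CPM in non-β-cells, and the 8 α-cell markers to 1612 to 9576 and 106800 to 136481 CPM. Of the 10 β-cell markers, 9 were higher in β-cells at each age, against 24.9% and 23.6% of all tested genes. The exception, Slc30a8, averaged 98.8 and 125 CPM in β-cells and 113 and 119 CPM in non-β-cells at 4 and 8 weeks. Glucagon (Gcg) in β-cells was 6.36% ± 1.75 of its non-β-cell mean at 4 weeks and 1.62% ± 0.43 at 8 weeks (SD, n = 3). Pancreatic polypeptide (Ppy) went from 3.77% ± 2.02 to 1.32% ± 0.12, while somatostatin (Sst), the δ-cell hormone, was at 9.35% ± 4.63 and 8.34% ± 0.45. The means of these hormone transcripts spanned 3.77% to 9.35% at 4 weeks and 1.32% to 8.34% at 8 weeks. Fosb (3.83% and 5.55%), Nr4a1 (4.05% and 6.15%) and Atf3 (7.87% and 3.46%) lay within the range of the same age at both ages. Nr4a2 (2.76% at both ages) and Nr4a3 (2.22% and 1.40%) lay below it at 4 weeks and within it at 8 weeks. Egr1 (5.63% and 10.3%), Ier2 (9.22% and 18.3%) and Fos (7.19% ± 0.80 and 23.5% ± 2.50) lay within it at 4 weeks and above it at 8 weeks. Junb (9.59% and 18.3%) and Jun (14.4% and 16.1%) were above it at both ages by their means. The 4-week β-cell samples of Sst ran from 6.42% to 14.7%, however, so the 4-week range of means is a loose bound. Other markers differed: the endothelial sum was at 15.8% and 2.20%, and the mesenchymal sum at 5.28% and 4.13%. The part of non-β-cell transcript in the β-cell levels was not tested.

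**Figure D2:**
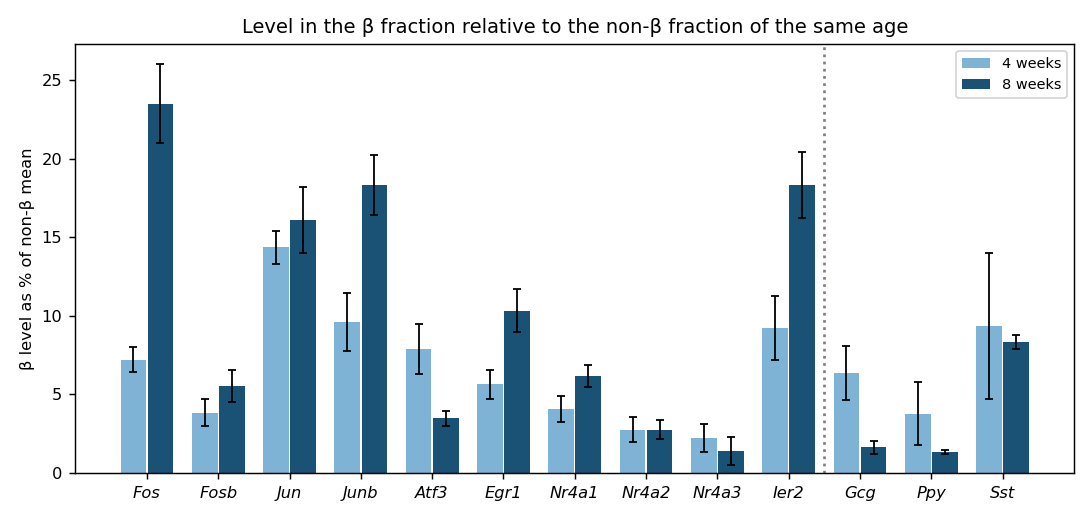
β-cell level of each gene as a percentage of the mean non-β-cell level at the same age; bars are means of 3 β-cell samples at 4 and 8 weeks and error bars are SD. Left of the dotted line, Fos, Junb and Ier2 reach 23.5%, 18.3% and 18.3% at 8 weeks; right of it, the α-cell gene Gcg stands at 6.36% and 1.62%.

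The comparison of 8 with 4 weeks within a fraction addresses the period in which immune cells enter the islets of these mice. Fos, which with Jun forms the AP-1 dimer, read 213, 265 and 246 CPM in 4-week β-cells and 622, 526 and 514 CPM in 8-week β-cells. Every 8-week β-cell sample was above every 4-week one, and the rise was 1.20 on the log2 scale (SE 0.14, limma-voom adjusted p = 0.000104). In non-β-cells Fos read 3441, 3326 and 3303 CPM at 4 weeks and 1936, 2925 and 2213 CPM at 8 weeks. Here every 8-week sample was below the 4-week samples, a fall of 0.53 (SE 0.15, limma-voom adjusted p = 0.0239), which no longer passed the test when non-β-cell 4-week replicate 1 or 2 or 8-week replicate 1 or 3 was left out (limma-voom adjusted p = 0.0501 to 0.0873).

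Fosb, a second FOS family member, read 99.7, 136 and 89.3 CPM in 4-week β-cells and 247, 177 and 188 CPM in 8-week β-cells. It rose by 0.92 on the log2 scale (SE 0.17, limma-voom adjusted p = 0.00226), with no overlap between ages. Non-β-cells held 2887, 3204 and 2373 CPM of Fosb at 4 weeks and 3810.4, 3656 and 3554 CPM at 8 weeks. All 3 later values were above the earlier ones, but the difference of 0.39 did not pass the test (SE 0.17, limma-voom adjusted p = 0.148). Fos and Fosb of non-β-cells thus lay on opposite sides of their 4-week values, and the share of Fos in the summed CPM per kb of both was 68.2% ± 3.17 at 4 weeks and 53.1% ± 5.63 at 8 weeks. In β-cells that share was 80.1% ± 2.77 and 83.1% ± 1.17.

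Junb, an AP-1 subunit that often damps Jun, read 165, 191 and 239.7 CPM in 4-week β-cells and 429, 398 and 347 CPM in 8-week β-cells. The rise was 0.99 on the log2 scale (SE 0.15, limma-voom adjusted p = 0.000553). Jun, the main activating partner of Fos, read 372, 429.6 and 412 CPM and then 549.7, 433 and 453 CPM. The lowest 8-week value of Jun was just above the highest 4-week value, and the difference of 0.24 did not pass the test (SE 0.11, limma-voom adjusted p = 0.176). Of the summed CPM per kb of both JUN genes in β-cells, Jun made up 53.9% ± 3.90 at 4 weeks and 40.9% ± 2.43 at 8 weeks. In non-β-cells the share of Jun was 43.6% ± 1.11 and 44.2% ± 1.41, and neither gene passed the test: Junb read 2005, 2122 and 2084 CPM at 4 weeks and 1771, 2376 and 2266 CPM at 8 weeks, and Jun 2867, 2852 and 2729.9 CPM and then 2633, 3274 and 3014 CPM. Their differences were 0.04 (SE 0.15, limma-voom adjusted p = 0.908) and 0.07 (SE 0.12, limma-voom adjusted p = 0.739).

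Atf3, a stress-induced bZIP factor that acts in the integrated stress response as well as in the early response, was the member of the 10 that fell in β-cells. Its β-cell samples read 157, 185 and 234 CPM at 4 weeks and 95.5, 72.5 and 79.1 CPM at 8 weeks. The groups did not overlap, and the fall was 1.21 on the log2 scale (SE 0.15, limma-voom adjusted p = 0.000118). Non-β-cells held 2268, 2501 and 2550.35 CPM at 4 weeks and 2153, 2442 and 2538 CPM at 8 weeks, an overlapping range with a difference of -0.04 (SE 0.15, limma-voom adjusted p = 0.902). Atf3 was 7.87% ± 1.60 of the non-β-cell mean in the 4-week β-cells and 3.46% ± 0.50 in the 8-week β-cells.

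Egr1, whose protein induces many second-wave genes and its own Nab corepressors, read 219, 292 and 226 CPM in 4-week β-cells and 429, 347 and 343 CPM in 8-week β-cells. It rose by 0.61 on the log2 scale (SE 0.14, limma-voom adjusted p = 0.00807). In non-β-cells it read 4483, 4795 and 3803 CPM at 4 weeks and 3389.8, 3875 and 3573 CPM at 8 weeks. These ranges overlapped and the difference of -0.27 did not pass the test (SE 0.14, limma-voom adjusted p = 0.241).

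Nr4a1, the nuclear receptor also called Nur77, read 60.7, 90.6 and 85.0 CPM in 4-week β-cells and 128, 102 and 119 CPM in 8-week β-cells. The rise was 0.57 on the log2 scale (SE 0.14, limma-voom adjusted p = 0.0157). Without β-cell 4-week replicate 1, 8-week replicate 1 or 8-week replicate 3, it did not pass the test (adjusted p = 0.0568, 0.0715 and 0.0666). In non-β-cells Nr4a1 read 1889, 2128 and 1814 CPM and then 1908, 1797 and 1959.9 CPM, a difference of -0.04 (SE 0.14, limma-voom adjusted p = 0.896). Nr4a1 carried most of the NR4A transcript in every group: per kb it made up 89.3% ± 2.48 and 93.7% ± 0.88 in β-cells at 4 and 8 weeks, and 84.8% ± 2.51 and 85.7% ± 2.91 in non-β-cells. The age differences of Nr4a2 were -0.24 in β-cells (95% interval -0.97 to 0.49) and -0.21 in non-β-cells (-0.65 to 0.23). Those of Nr4a3 were -0.77 (-2.65 to 1.10) and 0.15 (-0.40 to 0.69), so its interval in β-cells did not exclude a 2-fold change in either direction.

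Ier2, a small nuclear protein of the early response, read 84.8, 95.8 and 129 CPM in 4-week β-cells and 168, 162 and 135 CPM in 8-week β-cells. The rise of 0.60 on the log2 scale was the closest to the threshold of the 6 (SE 0.19, limma-voom adjusted p = 0.0445). It did not pass with edgeR's quasi-likelihood test (adjusted p = 0.0554), without the filter on low counts (0.153) or in 8 of the 12 fits that left out 1 sample (0.0562 to 0.173). In non-β-cells Ier2 read 1059, 1049 and 1251 CPM at 4 weeks and 615, 1043 and 887 CPM at 8 weeks. Each 8-week value was below the 4-week values, with a difference of -0.43 that did not pass the test (SE 0.19, limma-voom adjusted p = 0.158).

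Counted together, 6 of the 10 genes rose and 1 fell with age in β-cells, where 8.59% of all tested genes rose and 9.35% fell. The list had been drawn up beside the difference in age change, so counts of age changes are not independent of the choice of genes. Counting samples that did not overlap, 7 of 10 were higher at 8 weeks in β-cells, against 20.7% of all tested genes. Of the 10, 0 rose and 1 fell in non-β-cells, where 11.6% of all tested genes rose and 4.8% fell, and 2 of 10, Fos and Ier2, were lower without overlap, against 13.8%. The median age change of the 10 genes was 0.59 in β-cells and -0.04 for the non-β fraction, and that of all tested genes was 0.02 and 0.01. The summed level of the 10 genes was 1586 ± 177 CPM at 4 weeks and 2367 ± 274 CPM at 8 weeks in β-cells (SD, n = 3), and 21467 ± 1187 and 20364 ± 1463 CPM in non-β-cells. With both 4-week samples numbered 3 left out, whose deviations from their group means correlated across genes (r = 0.31), 6 of 10 still rose and 1 fell in β-cells, and 0 rose and 2 fell in non-β-cells.

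**Figure D3:**
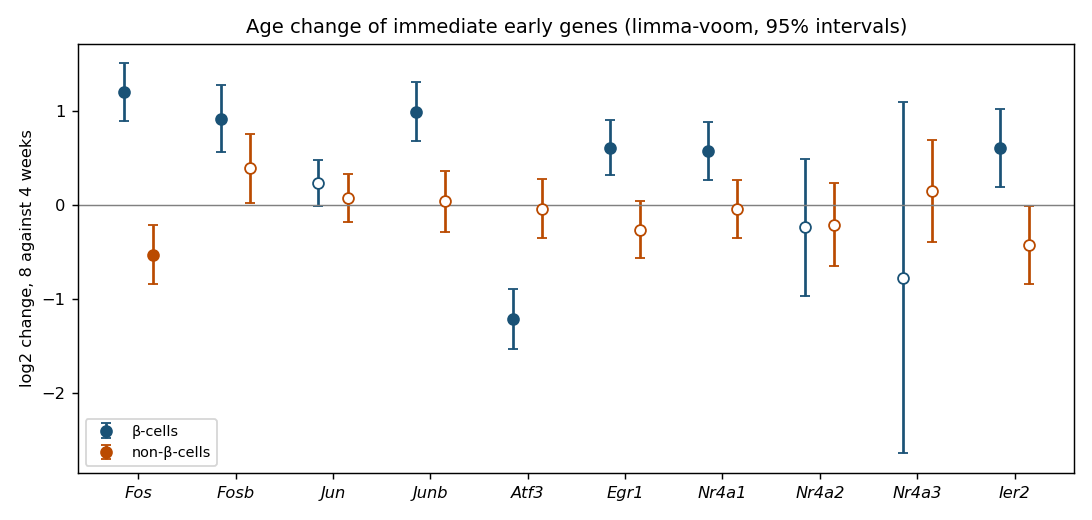
Log2 change from 4 to 8 weeks for each immediate early gene in β-cells and non-β-cells (limma-voom); lines are 95% intervals, filled points have an adjusted p under 0.05 and the grey line marks no change. In β-cells 6 filled points lie above the line and Atf3, at -1.21, below it; in non-β-cells the filled point is Fos, at -0.53.

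Transcripts of other cell types also moved with age. In β-cells the α-cell markers summed to 5749 to 9576 CPM at 4 weeks and 1612 to 2667 CPM at 8 weeks. Of these markers 7 of 8 fell, against 9.35% of all tested genes. The 8 acinar markers summed to 90.3 to 178 CPM and then 407 to 871 CPM in β-cells, and 1.91 to 50.4 and then 151 to 672 CPM in non-β-cells. In non-β-cells the 8 endothelial markers summed to 49.8 to 93.8 CPM at 4 weeks and 388 to 1059 CPM at 8 weeks. The 10 mesenchymal markers summed to 112 to 314 CPM and then 719 to 1109 CPM. In these lists 8 of 8 and 10 of 10 rose, against 11.6% of all tested genes. The leukocyte markers summed to 52.3 to 53.5 and 70.2 to 77.8 CPM in β-cells and to 7.98 to 13.6 and 15.4 to 20.6 CPM in non-β-cells, most of it from Cd68; Ptprc, which encodes CD45, was at most 0.0396 CPM in the β fraction and 0.789 CPM in the non-β fraction. Duct markers summed to 765 to 1057 CPM in β-cells and 302 to 528 CPM in non-β-cells, but most single genes did not follow the sum. Of the 6 duct markers, 2 were higher and 3 lower in β-cells at 4 weeks, and 1 was higher and 5 lower at 8 weeks. Over all tested genes, 24.9% and 23.6% were higher at these ages, and 23.7% and 25.6% were lower. The δ- and PP-cell markers summed to 541 to 1248 and 10897 to 16761 CPM, and glial markers to 9.57 to 10.8 and 14.04 to 19.2 CPM. The part of these cells in the age changes of the immediate early genes was not tested.

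The difference between the age change in β-cells and that in non-β-cells, which was among the values that chose the genes, was 1.73 (SE 0.20) on the log2 scale for Fos, 1.03 (SE 0.27) for Ier2, 0.95 (SE 0.21) for Junb and 0.87 (SE 0.19) for Egr1. It was -1.18 (SE 0.21) for Atf3. Nr4a1 (0.61), Fosb (0.53) and Jun (0.16) had smaller positive differences, Nr4a2 was near 0 (-0.03), and Nr4a3 was at -0.92 with an SE of 0.90. The median of the 10 was 0.57, against 0.00077 over all tested genes. These differences are made from the same samples as the age changes above and restate them.

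Replicates varied together within some groups. The within-group SD on the log2 scale ran from 0.13 for Jun to 0.62 for Nr4a3, with 0.35 for Nr4a2 and 0.18 to 0.27 for the other 7. In β-cells at 8 weeks, replicate 1 was above the group mean for 10 of 10 genes and by a median of 0.21. In β-cells at 4 weeks, replicate 1 was below it for 10 of 10 genes, by a median of -0.18. The 8-week replicate also had the highest acinar sum of the β-cell samples, 871 CPM against 451 and 407 CPM in the others of its group, whose part in the deviation was not tested. Without 8-week replicate 1, 5 of the 10 genes passed the test for the age change in β-cells, 4 higher and 1 lower, and the same counts were found without 4-week replicate 1 and without 8-week replicate 3.

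Further genes of the early response were read from lists of the pathway. Of 37 other rapidly induced genes, 11 rose and 9 fell with age in β-cells, and 19 rose and 4 fell in non-β-cells, with medians of 0.15 and 0.50. Among all tested genes, 8.59% rose and 9.35% fell in β-cells, and 11.6% rose and 4.8% fell in non-β-cells. Ier3, a stress-inducible survival factor, rose in β-cells by 2.79 on the log2 scale (SE 0.30), from a mean of 7.58 to 51.0 CPM, and in non-β-cells by 3.21 (SE 0.25), from 13.0 to 111 CPM. Ccn1, a secreted matrix protein, rose by 1.37 (SE 0.38) in β-cells, from 4.17 to 11.3 CPM. In non-β-cells Ccn1 averaged 62.5 CPM at 4 weeks and 247 CPM at 8 weeks. Myc, the growth-promoting transcription factor, fell by 1.56 (SE 0.10) in β-cells, from 92.3 to 31.3 CPM. It was also lower at 8 weeks in non-β-cells, with means of 70.7 and 32.2 CPM at 4 and 8 weeks. In non-β-cells Phlda1 and Gadd45b, the latter a stress sensor upstream of p38 kinase, rose by 2.27 (SE 0.18) and 2.14 (SE 0.17). Between fractions, 29 of the 37 genes were lower in β-cells with an adjusted p under 0.05 at 4 weeks and 34 at 8 weeks (limma-voom). Over all tested genes, 23.7% and 25.6% were lower in β-cells by that rule at 4 and 8 weeks, and 24.9% and 23.6% were higher. Among those with a mean log2 CPM of at least 3, the largest differences at 8 weeks were those of Egr3, Egr4 and Egr2, relatives of Egr1, at -6.32 (SE 0.36), -6.31 (SE 0.22) and -5.51 (SE 0.31).

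Of the 11 partners and competitors of AP-1, 10 were tested, and Fosl2, a FOS family member, rose in β-cells by 0.86 (SE 0.22), from 34.9 to 62.5 CPM. Maff and Mafk, small MAF proteins that pair with FOS proteins, fell by 0.37 (SE 0.10) and 0.30 (SE 0.09), and the other 7 did not pass the test in β-cells. In non-β-cells 4 of 10 rose and 0 fell, among them Maff by 0.68 (SE 0.09) and Jund, the JUN family member found in unstimulated cells, by 0.55 (SE 0.14). The shares of all tested genes that rose and fell were 8.59% and 9.35% in β-cells and 11.6% and 4.8% in non-β-cells. Beside Jun and Junb, Jund was lower in β-cells at 8 weeks by a log2 difference of -1.34 (SE 0.14).

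Of 15 transcription factors and coactivators that act on early promoters, 2 rose and 1 fell in β-cells and 2 rose and 0 fell in non-β-cells, counts near the shares of all tested genes given above. Elk3, an ETS partner of Srf, rose in both fractions, by 0.67 (SE 0.13) and 0.89 (SE 0.13), Crem, a CREB relative that the early response itself induces, rose in β-cells by 0.68 (SE 0.20), and Srf fell in β-cells by 0.38 (SE 0.12). The β against non-β differences of Srf were -1.86 (SE 0.11) at 4 weeks and -2.48 (SE 0.11) at 8 weeks. Of 16 RAS and MAP kinase genes, 2 rose (Araf by 0.51, SE 0.10, and Map2k1 by 0.37, SE 0.11) and 1 fell in β-cells (Nras by 0.54, SE 0.11), and 1 rose in non-β-cells (Mapk14 by 0.28, SE 0.09). In β-cells these counts too lay near the 8.59% and 9.35% of all tested genes that rose and fell. Between fractions 2 of the 16 kinase genes were lower in 4-week β-cells and 3 in 8-week β-cells, and 4 and 6 were higher. Among all tested genes, 23.7% and 25.6% were lower at these ages, and 24.9% and 23.6% were higher.

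Feedback inhibitors of the pathway, the dual-specificity phosphatases that remove phosphate from MAP kinases, the Sprouty and Spred proteins and the Nab corepressors, were tested for 14 of 15 genes. In β-cells 1 rose and 4 fell, where 8.59% of all tested genes rose and 9.35% fell. The riser was Dusp1, itself an early gene, by 1.10 (SE 0.14), from 64.4 to 138 CPM, and Dusp8 and Dusp16 fell by 1.70 (SE 0.11) and 1.16 (SE 0.15). In non-β-cells 3 rose and 1 fell, the latter Dusp4 by 1.23 (SE 0.13), where 11.6% of all tested genes rose and 4.8% fell. Between fractions 9 of 14 were lower in 4-week β-cells and 11 in 8-week β-cells, against 23.7% and 25.6% of all tested genes.

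Heat shock genes and genes of the integrated stress response, which are also induced when cells are handled, were read beside the early genes. Of 13 heat shock genes, 0 rose and 10 fell in β-cells and 9 rose and 0 fell in non-β-cells. For this list and the next, the shares of all tested genes that rose and fell were 8.59% and 9.35% in β-cells and 11.6% and 4.8% in non-β-cells. Their summed level was 14826 ± 1553 CPM at 4 weeks and 7415 ± 44.4 CPM at 8 weeks in β-cells, and 4125 ± 555 and 7428 ± 366 CPM in non-β-cells (SD, n = 3). Hsp90aa1, a cytosolic chaperone, fell by 1.44 (SE 0.12) in β-cells, and the inducible Hspa1b and Hspa1a rose by 4.05 (SE 0.26) and 3.93 (SE 0.18) in non-β-cells, although reads of this near-identical pair may be divided arbitrarily between them. At 4 weeks 10 of the 13 heat shock genes were higher in β-cells and 0 lower, and at 8 weeks 3 were higher and 5 lower. Among all tested genes, 24.9% and 23.6% were higher in β-cells at 4 and 8 weeks, and 23.7% and 25.6% were lower. The 10 immediate early genes were all lower in β-cells at both ages. Of 10 genes of the integrated stress response, to which Atf3 also belongs, 1 rose and 6 fell in β-cells and 2 rose and 5 fell in non-β-cells. Ddit3, which encodes CHOP, fell by 0.98 (SE 0.17) in β-cells, Ppp1r15a, which encodes the phosphatase subunit GADD34, fell by 0.81 (SE 0.13) in β-cells and rose by 0.91 (SE 0.13) in non-β-cells, and Trib3 fell by 2.51 (SE 0.13) in non-β-cells. The part of cell handling in the levels of the early genes was not tested.

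**Figure D4:**
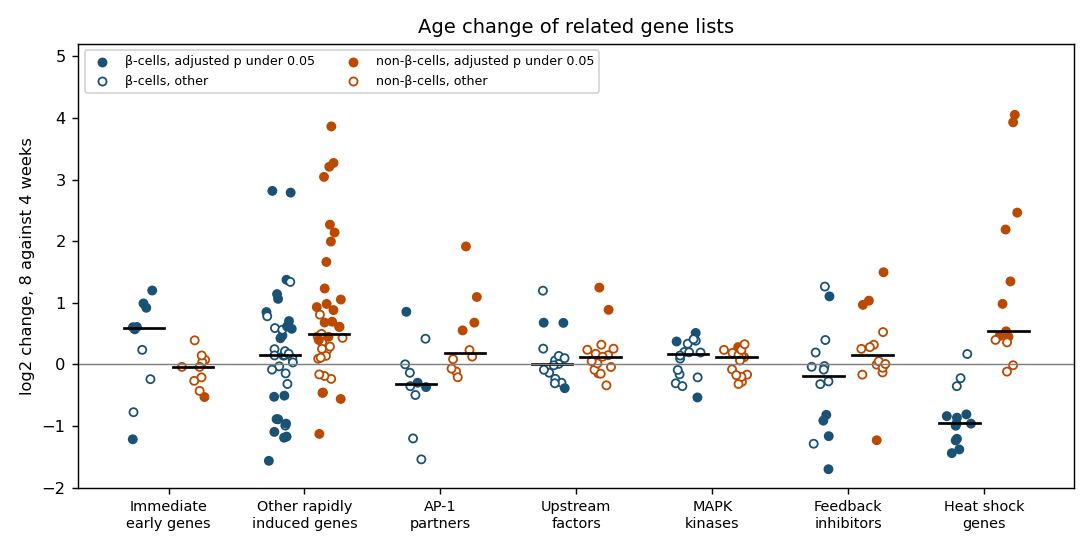
Log2 change from 4 to 8 weeks (limma-voom) of the genes of each list in β-cells (blue) and non-β-cells (orange); points are genes, filled where the adjusted p was under 0.05, and bars are list medians. The immediate early genes have medians of 0.59 and -0.04, and the heat shock genes -0.95 and 0.54.

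The genes whose profile over the 12 samples was nearest to the mean profile of the 10 were found by the root mean square difference of log2 CPM centred on the mean of each gene, among 10165 other genes. Samd5 was nearest at 0.20, then Ptprz1, a receptor tyrosine phosphatase, at 0.24, Nefm, a neurofilament subunit, at 0.25, Klf4, a zinc finger factor on the list of rapidly induced genes, at 0.28, and Nptx2, a neuronal pentraxin, at 0.30. Klf4 averaged 36.7 and 34.1 CPM in β-cells at 4 and 8 weeks and 554 and 375 CPM in non-β-cells. The measure is led by the difference between fractions, which is -3.91 at 4 weeks for Samd5 and -3.92 for Klf4 on the log2 scale. Among the 10 genes themselves, Egr1 was closest to their mean at 0.17 and Nr4a1 next at 0.24, and Nr4a3 was farthest at 1.09.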

How the data were processed

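RNA was sequenced in 12 samples of sorted islet cells, grouped by the cell fraction and age in the labels. According to the methods of the study, the authors trimmed single-end, reverse-stranded reads with fastp, assigned them to Ensembl mouse transcripts (GRCm38) with kallisto and summed them to genes with tximport. The deposited values are estimated counts, neither scaled nor filtered, of which 14.0% to 19.3% per sample were not whole. Tool versions, and whether kallisto was told the strand, are not given in the sources used here. Counts split among near-identical genes are uncertain.

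Counts were rounded, genes with a CPM above 1 in at least 3 samples were kept, and libraries were scaled by TMM (edgeR 4.0.16). The test was limma-voom (limma 3.58.1, R 4.3.3) in 1 model of all 12 samples with a mean per group, two-sided, with Benjamini-Hochberg adjustment over all 15598 tested genes and a threshold of 0.05. Log2 CPM used a prior count of 2. On simulated counts for the β-cell age change, 86.2% of genes changed 2-fold (log2 of 1) and 100.0% of those changed by a log2 of 2 were recovered, and 93.5% and 100.0% for non-β-cells. Every simulated gene had the same dispersion and no difference between fractions, and no change was smaller than a log2 of 1. These rates therefore do not extend to the smaller changes of the members or to genes as variable as Nr4a3. The members and lists were chosen with earlier results of these data known. All members are named; from each list, counts and at most 3 genes with the largest called change and a mean log2 CPM of at least 3; and the 5 nearest profiles. Marker lists were read by sums and counts. Replicate numbers in the labels were examined for pairing by correlating deviations from group means across genes. Same-numbered samples correlated by -0.01 to 0.03 between ages in β-cells and -0.00 to 0.12 in non-β-cells. Between fractions they correlated by 0.08 to 0.31 at 4 weeks and 0.01 to 0.05 at 8 weeks. Differently numbered samples correlated there by -0.23 to 0.11 and -0.03 to 0.01. The labels do not say whether the numbers are pairs. The main fit took none, and the replicate block is the fit with pairs. Alternatives were DESeq2 1.42.0, its size factors alone, the quasi-likelihood test of edgeR, total counts, no filter, at least 10 counts in 6 samples, sample quality weights, only the groups compared, the replicate block, both 4-week samples numbered 3 left out, and each sample left out.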

Additional observations from a re-analysis of the deposited data

Results flagged for a closer look

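Fos and Ier2 were singled out because every β-cell sample was higher at 8 than at 4 weeks while every non-β-cell sample was lower. The difference of the age changes, β less non-β, was 1.73 on the log2 scale for Fos and 1.03 for Ier2. Since the genes had been chosen with this contrast in view, no test of the difference is given, and it counts as not tested.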

How the results depend on the processing

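For the contrasts that chose the genes, median differences are given with no test: β against non-β, -3.98 at 4 weeks was -4.08 to -3.90 and -3.66 at 8 weeks was -3.75 to -3.58 over all alternatives, and the difference in age change, 0.57, was 0.45 to 0.70. In β-cells the count for age was 7, and 6 to 8 under the other settings and 5 to 7 with 1 sample left out. In non-β-cells it was 1, and 2 without the filter (Fosb rose, adjusted p = 0.0212, where the median of all genes was 0.21), 2 with both 4-week samples numbered 3 left out (Egr1 fell, adjusted p = 0.0411), and 0 to 1 with 1 sample left out, 0 without 4-week replicate 1 or 2 or 8-week replicate 1 or 3. With the replicate block, the counts were 6 in β-cells (Ier2 lost, adjusted p = 0.0510) and 1 in non-β-cells, the medians were -3.98, -3.65 and 0.57, and no other age call changed. Jun rose in β-cells with sample quality weights (0.28, adjusted p = 0.0278). In non-β-cells, uncalled values near 0 changed sign: Junb was -0.013 with total counts, -0.0071 with only the groups compared and -0.035 to 0.15 with 1 sample left out; Nr4a3 was -0.087 with quality weights, -0.060 without both samples numbered 3 and -0.12 to 0.38 with 1 left out; Atf3 was 0.053, 0.00085 and -0.12 to 0.013; and Nr4a1 was -0.089 to 0.0078 with 1 left out. Over all genes, quality weights called 5382 genes in β-cells against 2799 and 2384 for the difference in age change against 800, where the block called 2080 and DESeq2 1562; the cause was not tested. Nr4a3 in β-cells rests on 23 to 103 counts per sample, which limits its precision.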
